A study of Mus musculus with 6 samples.

Results

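Long intergenic non-coding RNA (lincRNA) genes that were detectably transcribed in CD4+ T cells activated in mice were compared between cells with and without the histone deacetylase HDAC1. A gene was a member when the deposited annotation gave it the biotype lincRNA and its mean CPM (read counts scaled to an equal total per library) over the 6 libraries was at least 2. This held for 138 of 5854 lincRNA rows, of which 1338 had a count in any library, in a table of 55536 genes. The members were thus selected on the mean measured level over all 6 libraries, not on the difference between genotypes. Of the members, 114 reached 2 CPM in the mean of both genotypes, 10 only in that of the HDAC1-deficient cells and 14 only in that of the controls. The 3 members just inside the threshold were Gm21781 at 2.05, Gm29243 at 2.01 and 4933404O12Rik at 2.005 CPM, and the 3 lincRNA genes just outside were D730003I15Rik at 1.99, C430042M11Rik at 1.98 and Gm48236 at 1.97 CPM.

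The cells carried 2D2, a T cell receptor transgene that recognises a peptide of myelin oligodendrocyte glycoprotein (MOG), on the C57BL/6 background. HDAC1-cKO cells had the genotype 2D2-Hdac1fl/fl-Cd4-Cre+, in which Cre recombinase under the Cd4 promoter deletes the floxed Hdac1 alleles in T cells. Control cells, called WT here, had the genotype 2D2-Hdac1fl/fl-Cd4-Cre-, so that both groups carried the transgene and the floxed alleles. Naive CD45.2+ donor cells were injected into CD45.1+ recipients, which were immunised in the footpad 18 h later with MOG35-55 in complete Freund's adjuvant. On day 4 the donor cells were sorted from the popliteal lymph nodes, 500 cells per library. Each library pooled 2 mice, and there were 3 libraries per genotype. The age of the mice is not stated in the sources used here. The deletion was in the donor cells, and no depletion of the recipients' own immune cells is described.

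LincRNA genes lie between protein-coding genes and give rise to transcripts that are often spliced and polyadenylated and are annotated as non-coding. Some act in the nucleus as scaffolds, some are precursors of microRNAs or small nucleolar RNAs, and for many no function is known. HDAC1 removes acetyl groups from histones, and its loss can change the transcription of coding and non-coding genes alike. The class label is an annotation, and some genes in it hold copies of coding genes or of repeats.

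Library totals ranged from 19956153 to 36307610 counts in HDAC1-cKO and from 39036751 to 55900237 in WT, so the WT libraries were deeper. Each member had at least 479 counts over the 6 libraries together. Hdac1, the deleted gene, was at 14.7 to 17.2 CPM in HDAC1-cKO and at 234 to 244 CPM in WT. All 10 T cell markers examined were detected, and 2 of them were called lower by edgeR. The sum of 7 myeloid and dendritic cell markers, of which 2 were at 0, was 10.6 to 13.3 CPM in HDAC1-cKO and 18.4 to 38.2 CPM in WT. The sum of 2 CD8 T cell markers was 65.7 to 72.3 CPM in HDAC1-cKO and 45.4 to 59.4 CPM in WT. Both sums moved with the genotype, and their part in the results below was not tested. Those of 10 T cell, 5 B cell, 3 plasma cell, 2 NK cell, 4 stromal and endothelial and 2 erythroid markers overlapped between the genotypes. Replicate 2 of HDAC1-cKO was unlike the rest. Across 8227 genes, its deviation from the mean of the libraries correlated with GC content at r = 0.594, against -0.289 to -0.07 in the other 5. Counts came from bulk samples and a kit that does not mark strand. A lower value can therefore mean fewer cells of a type or less RNA per cell, and reads of overlapping genes on opposite strands cannot be told apart.

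Loss of HDAC1 went with lower levels of 7 members and higher levels of 2. The 7 lower genes were AU020206, Gm39323, 4833407H14Rik, Gm47705, Gm5547, Neat1 and AC160336.1, and the 2 higher ones were Gm42031 and AC102496.1. The rule for a call was a Benjamini-Hochberg adjusted p under 0.05 over all 15519 genes tested with edgeR's quasi-likelihood test, and all 138 members were tested. Among all genes tested, 1.97% were called, with 0.979% of the genes tested called higher and 0.992% called lower in HDAC1-cKO. The corresponding share of members was 6.52%. Of the 114 members at 2 CPM or more in both groups, 2 were called higher and 6 lower. Leaving out any of the libraries other than HDAC1-cKO replicate 2 ended all 9 calls, and leaving out that replicate gave 2 higher and 10 lower members. Over all genes tested, 258 were called higher and 368 lower without that replicate. Without another library in its place, 15 to 26 were called higher and 10 to 23 lower.

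The members leaned towards lower values in HDAC1-cKO beyond the called genes. The median log2 fold change, HDAC1-cKO over WT, was -0.22 over the 138 members and -0.0021 over all genes tested. It was below 0 for 93 members, or 67.4%, against 50.3% of all genes tested. In the 114 members at 2 CPM or more in both groups the median was also -0.22, with 79 below 0. All 3 HDAC1-cKO libraries lay below all 3 WT libraries for 35 members, or 25.4%, where the share among all genes tested was 11.8%. All 3 lay above for 13 members, or 9.42%, where the share was 12.7%. Without HDAC1-cKO replicate 2, the remaining libraries lay below WT for 49 members and above for 20, against 3015 (19.4%) and 3106 of all 15519 genes tested. The unadjusted p was under 0.05 for 27 lower and 10 higher members, 26.8% of the members against 17.0% of all genes tested and 21.9% of coding genes at 2 CPM or more. Among the 114 members at 2 CPM or more in both groups this share was 22.8%, near that of the coding genes. All 3 HDAC1-cKO libraries lay below WT for 29 of these 114 and above for 7, or 25.4% and 6.14%, where the shares of coding genes were 13.9% and 14.6%. Correcting every library for its GC trend, with offsets, moved the members' median to -0.13, with 83 below 0. The median over all genes tested was then 0.028.

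Other non-coding classes in the same table, taken at the same threshold of 2 CPM, showed the lean to different degrees. The median log2 fold change was -0.23 over 76 antisense genes, -0.13 over 71 processed transcripts, -0.14 over 18 bidirectional promoter genes and -0.29 over 54 genes of the class TEC, a label for loci still to be checked experimentally. It was -0.01 over 9614 protein-coding genes, of which 51.4% were below 0 and 2.65% were called. Among genes between 2 and 20 CPM, the 3869 coding genes had a median of -0.01 and the 114 lincRNA members one of -0.23. The members differed from coding genes in other ways as well. Their median GC content was 46.9% against 49.2%, and their median transcript length was 1756 against 3328 bases. The difference between the classes was not tested.

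**Figure D1:**
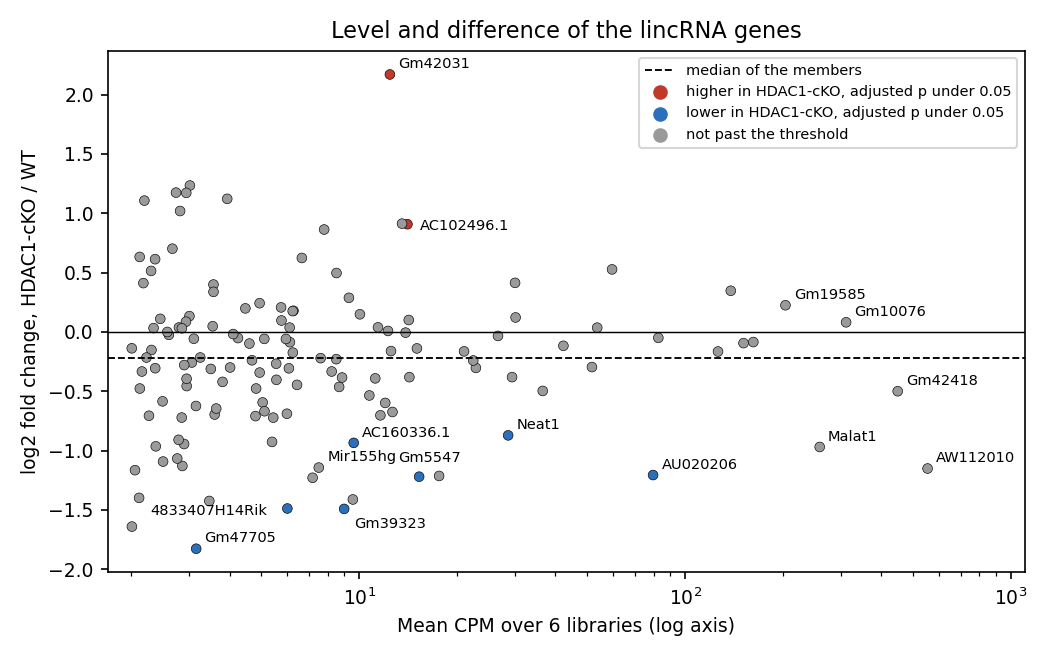
Mean CPM over the 6 libraries (log axis) and log2 fold change, HDAC1-cKO over WT, of the 138 expressed lincRNA genes. Each point is 1 gene, coloured where its edgeR adjusted p was under 0.05. More points lie below 0 than above, 93 of 138, and the dashed line marks the median of -0.22.

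Of the lower members, 4 share no 50-base stretch with any other annotated gene: AU020206, Gm39323, Gm5547 and Gm47705. AU020206, a spliced lincRNA of unassigned function at chr7:75769038-75782099 (GRCm38, minus strand), was at 51.7, 39.6 and 54.5 CPM in HDAC1-cKO replicates 1, 2 and 3 and at 101, 123 and 113 CPM in WT. The groups did not overlap, and HDAC1-cKO replicate 2 was the lowest library. AU020206 fell by 1.21 ± 0.15 (SE) on the log2 scale (edgeR adjusted p = 0.0176), to 43.4% of the WT mean. Its level per length in the authors' FPKM values was 15.0 on average in HDAC1-cKO and 34.8 in WT.

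Gm39323 lies at chr9:44011735-44041059 (minus strand), head to head with Thy1, which encodes a surface glycoprotein of T cells, at a distance of 2325 bases. It was at 4.85, 5.56 and 3.82 CPM in HDAC1-cKO and at 12.4, 15.4 and 12.5 CPM in WT, and the groups did not overlap. Gm39323 fell by 1.49 ± 0.22 (SE) on the log2 scale (edgeR adjusted p = 0.0249). Thy1 itself did not pass the test, at -0.17 ± 0.11 (SE, edgeR adjusted p = 0.503) in log2 fold change. Gm5547, at chr3:105815540-105817357 (plus strand), was at 7.82, 8.03 and 11.96 CPM in HDAC1-cKO and at 18.9, 24.0 and 21.6 CPM in WT. The highest HDAC1-cKO library, replicate 3, was still below the lowest WT library. Gm5547 fell by 1.22 ± 0.22 (SE) on the log2 scale (edgeR adjusted p = 0.0354).

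Gm47705, at chr12:25181768-25189630 (plus strand), was the member with the lowest fold change. It was measured at 1.503, 1.74 and 0.931 CPM in HDAC1-cKO and at 4.76, 4.43 and 5.82 CPM in WT, with counts from 19 to 244 per library. The groups did not overlap, and Gm47705 fell by 1.83 ± 0.31 (SE) on the log2 scale (edgeR adjusted p = 0.0328). The member reached the threshold of 2 CPM only through its WT libraries. Its nearest coding gene, Id2, which encodes an inhibitor of E protein transcription factors, starts 84628 bases away on the other strand and fell as well, by 1.07 ± 0.15 (SE) on the log2 scale (edgeR adjusted p = 0.0240).

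The windows around the start sites of these genes differed in base composition. RefSeq windows of GRCm38.p6, from 250 bases before to 50 bases after a start, were found by symbol for 65 of the 138 members. Those of 3 of the lower members are printed, 5′ to 3′ on the gene's strand, because RefSeq places a start of a called lower member in each. Another called lower member, 4833407H14Rik, has a window as well, chr19:53460372-53460671 (plus strand), which is not printed. It holds 4 CpG at a GC content of 45.7%. Start sites were not measured here. Gm39323 has another RefSeq window, chr9:44034610-44034909, which holds 1 CpG and whose start lies 6400 bases inside the gene; the one printed is nearer to the GENCODE start. That of AW112010, the member with the most reads, is set beside them. CpG dinucleotides, the main site of DNA methylation in mammals, are in capitals. The AU020206 window is chr7:75782071-75782370 (minus strand), Gm39323 chr9:44042135-44042434 (minus), Gm5547 chr3:105815317-105815616 (plus) and AW112010 chr19:11050517-11050816 (minus).
AU020206: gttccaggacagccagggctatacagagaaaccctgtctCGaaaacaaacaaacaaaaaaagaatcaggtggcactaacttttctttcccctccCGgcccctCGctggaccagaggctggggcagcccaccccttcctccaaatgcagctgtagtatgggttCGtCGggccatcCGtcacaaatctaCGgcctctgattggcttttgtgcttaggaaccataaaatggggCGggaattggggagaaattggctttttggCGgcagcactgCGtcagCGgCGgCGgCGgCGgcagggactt
Gm39323: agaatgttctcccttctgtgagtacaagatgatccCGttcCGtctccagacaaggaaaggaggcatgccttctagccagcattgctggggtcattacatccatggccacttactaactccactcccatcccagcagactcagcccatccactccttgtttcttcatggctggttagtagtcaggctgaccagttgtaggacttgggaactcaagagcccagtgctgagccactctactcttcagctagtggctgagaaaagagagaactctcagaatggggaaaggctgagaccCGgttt
Gm5547: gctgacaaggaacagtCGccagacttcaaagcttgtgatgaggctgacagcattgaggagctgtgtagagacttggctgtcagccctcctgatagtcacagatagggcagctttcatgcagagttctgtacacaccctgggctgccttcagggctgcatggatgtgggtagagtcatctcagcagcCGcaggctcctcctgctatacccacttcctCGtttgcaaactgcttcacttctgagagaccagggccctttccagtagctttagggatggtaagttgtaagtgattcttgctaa
AW112010: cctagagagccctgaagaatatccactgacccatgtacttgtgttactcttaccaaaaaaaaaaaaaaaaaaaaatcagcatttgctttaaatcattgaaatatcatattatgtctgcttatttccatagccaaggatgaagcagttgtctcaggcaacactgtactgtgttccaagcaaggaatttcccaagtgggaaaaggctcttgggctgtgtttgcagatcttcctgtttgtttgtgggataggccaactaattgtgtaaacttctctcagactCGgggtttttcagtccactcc
The AU020206 window held 15 CpG dinucleotides and had a GC content of 55.7%, and 34.6% of all 32851 RefSeq windows held as many or more. Those of Gm39323 and Gm5547 held 3 each, a number that 76.7% of windows reach. The AW112010 window held 1, which 94.6% of windows reach, at a GC content of 40.0%. The median was 7 over all windows and also 7 over the 75 windows of members. The RefSeq start was 21 bases before the GENCODE start in AU020206 and 27 bases inside the GENCODE gene in Gm5547. In Gm39323 it was 1125 bases before the GENCODE start, and in AW112010 5242 bases inside the longer GENCODE gene.

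**Figure D2:**
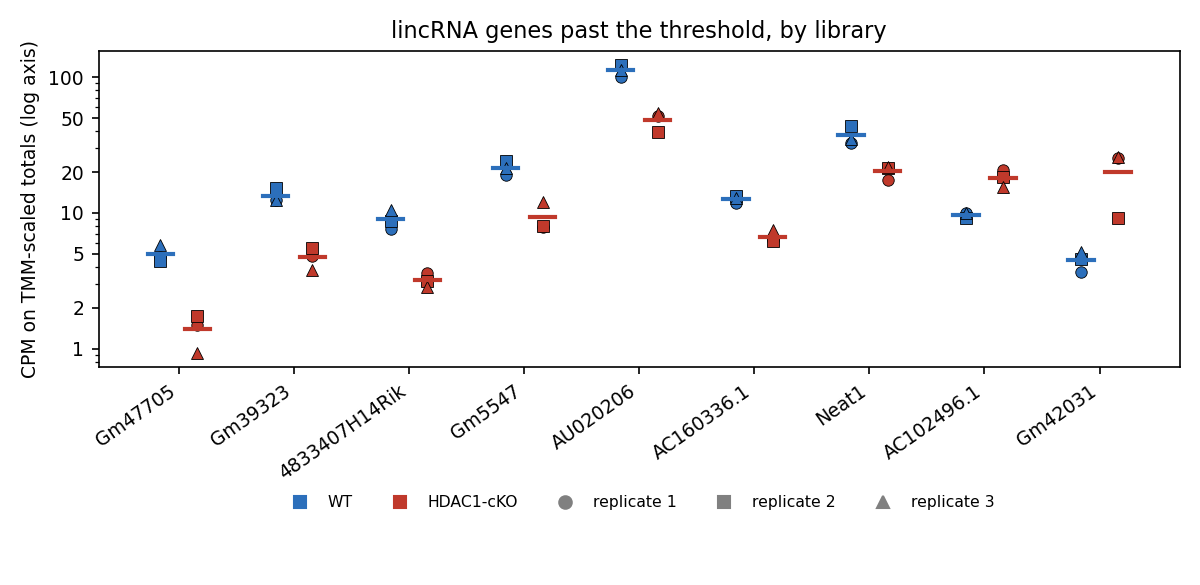
CPM on TMM-scaled library totals (log axis) of the 9 lincRNA genes past the threshold. Each point is 1 library, marked by replicate, and each bar is the mean of 3. In all 9 genes the HDAC1-cKO and WT libraries do not overlap, and Gm42031 in HDAC1-cKO replicate 2, at 9.15 CPM, lies apart from the 25.5 and 25.8 CPM of the other HDAC1-cKO libraries.

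Neat1 and Malat1 are neighbouring nuclear RNAs on chromosome 19. Neat1 builds the paraspeckle, a body in which RNAs and proteins are held in the nucleus, and Malat1 accumulates in nuclear speckles, where splicing factors gather. Neat1 (chr19:5824708-5845478, minus strand) was at 17.6, 21.6 and 21.9 CPM in HDAC1-cKO and at 32.9, 43.6 and 35.2 CPM in WT. No WT library was as low as an HDAC1-cKO library, and Neat1 fell by 0.87 ± 0.17 (SE) on the log2 scale (edgeR adjusted p = 0.0442). The call was lost with upper-quartile scaling and with limma on both log2 scales of the FPKM values. Malat1 (chr19:5795690-5802672, minus strand) was at 176, 139 and 213 CPM in HDAC1-cKO and at 319, 480 and 235 CPM in WT. Its groups did not overlap either, but the WT libraries were spread widely, and at -0.97 ± 0.26 (SE) in log2 fold change Malat1 did not pass the test (edgeR adjusted p = 0.108). Of the 15 tested coding genes within 200 kb of Neat1, 6 had a log2 fold change below 0. None was called by edgeR, where 3 had an unadjusted p under 0.05, all lower, and DESeq2 called 1 and limma-voom 2 lower. The fixed list of nuclear body genes held 5 names, of which 4 were in the table and tested, and 1, Neat1, was called.

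The other lower members carry limits from the annotation. 4833407H14Rik (chr19:53460622-53462723, plus strand) was at 3.59, 3.13 and 2.84 CPM in HDAC1-cKO and at 7.61, 8.72 and 10.6 CPM in WT, without overlap. It fell by 1.49 ± 0.23 (SE) on the log2 scale (edgeR adjusted p = 0.0275). Of its 50-base stretches 66.6% also lie in Mirt1, a member that overlaps it on the opposite strand, so their reads cannot be told apart. Mirt1 was at 1.78, 0.829 and 2.84 CPM in HDAC1-cKO and at 3.82, 4.63 and 2.79 CPM in WT, and these groups overlapped (-1.07 ± 0.45 SE in log2 fold change, edgeR adjusted p = 0.282). AC160336.1, on chromosome 14, is annotated as 1 transcript of 93147 bases without introns. It was at 6.29, 6.18 and 7.497 CPM in HDAC1-cKO and at 11.9, 13.4 and 12.8 CPM in WT. AC160336.1 fell by 0.94 ± 0.19 (SE) on the log2 scale (edgeR adjusted p = 0.0483). That call was lost with upper-quartile scaling, on both FPKM scales, with offsets for GC content and, at an edgeR adjusted p of 0.0502, when replicate 2 of HDAC1-cKO was left out.

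The 2 higher members belong to the same sequence family. Gm42031 (chr8:85125872-85132289, minus strand) was at 25.5, 9.15 and 25.8 CPM in HDAC1-cKO and at 3.69, 4.58 and 5.14 CPM in WT. The groups did not overlap, although HDAC1-cKO replicate 2 was far closer to the WT libraries than the other 2 were. Gm42031 rose by 2.17 ± 0.39 (SE) on the log2 scale (edgeR adjusted p = 0.0370), and by 2.51 without HDAC1-cKO replicate 2. AC102496.1, on chromosome 18, was at 20.7, 18.5 and 15.5 CPM in HDAC1-cKO and at 9.91, 9.25 and 10.04 CPM in WT, and rose by 0.91 ± 0.18 (SE) on the log2 scale (edgeR adjusted p = 0.0443).

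Members were joined into families where they shared at least 20 stretches of 50 bases, which gave 8 families with 22 members in all. The family of Gm42031 and AC102496.1 held 3 more genes, AC158975.2, Gm26880 and Gm4316. In all 5 of them every HDAC1-cKO library was above every WT library. AC158975.2 and Gm26880 reached the threshold of 2 CPM only through the HDAC1-cKO libraries, where they are high, so this count is a description and is not read against the share of all genes. AC158975.2 was at 4.45, 3.93 and 4.26 CPM in HDAC1-cKO and at 1.27, 1.87 and 2.24 CPM in WT (log2 fold change 1.23 ± 0.30 SE, edgeR adjusted p = 0.0783). Gm26880 was at 4.54, 2.73 and 4.02 against 1.62, 1.84 and 2.11 CPM (1.02 ± 0.30 SE, edgeR adjusted p = 0.132). Gm4316 was at 7.94, 8.96 and 7.25 against 4.35, 5.87 and 5.48 CPM (0.62 ± 0.22 SE, edgeR adjusted p = 0.193). No repeat annotation was used, and what the shared sequence is was not tested.

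The members of this family do not count as 5 separate measurements. Gm42031, AC102496.1, Gm26880 and Gm4316 share a stretch of 74 bases, which is longer than the 50-base reads, and Gm42031 and Gm26880 share one of 139 bases. Reads from such a stretch fit several genes, and how the authors treated them is not given in the sources used here, so each value is uncertain. Outside the members, 22 genes of the annotation held stretches of the family, and 12 of them were tested. Of these 12, 9 had a log2 fold change above 0. Every HDAC1-cKO library lay above every WT library in 6 of the 12 and below in 2. The shares among all genes tested were 12.7% and 11.8%. Reads may be shared among these 12 genes too, so the counts are a description. None was called higher by edgeR, DESeq2 or limma-voom, where 2 had an unadjusted edgeR p under 0.05 and were higher. AI506816, a processed transcript, went the other way, from 83.8 to 89.5 CPM in WT to 42.3 to 54.0 CPM in HDAC1-cKO, and fell by 0.80 ± 0.13 (SE) on the log2 scale (edgeR adjusted p = 0.0296). The direction was thus not shared by all genes that hold the sequence.

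**Figure D3:**
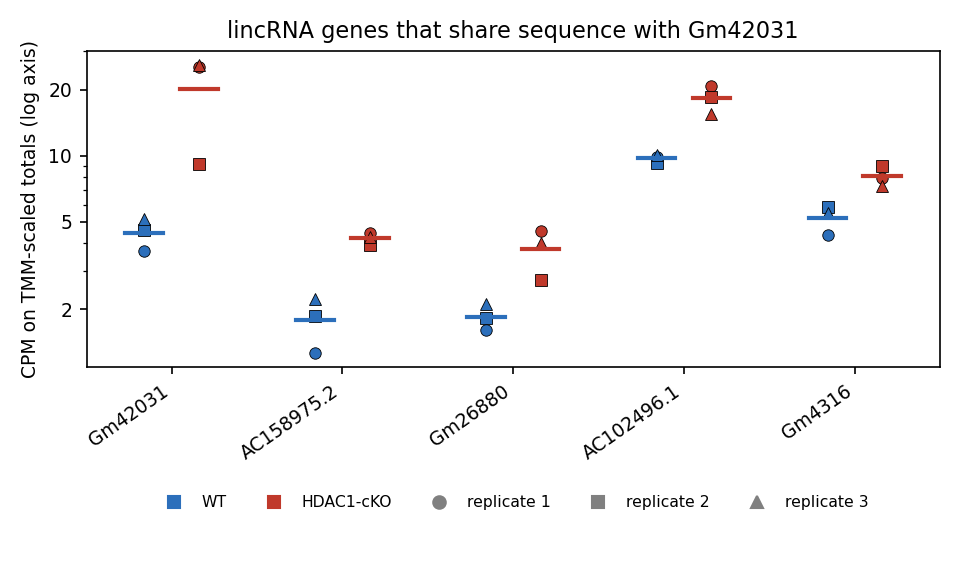
CPM on TMM-scaled library totals (log axis) of the 5 lincRNA genes that share 50-base stretches with Gm42031. Each point is 1 library, marked by replicate, and each bar is the mean of 3. In each gene the 3 HDAC1-cKO libraries lie above the 3 WT libraries, and edgeR called Gm42031 and AC102496.1.

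Most lincRNA reads came from few genes. The 8 members with the most reads held 61.5% of the summed CPM of all members, 9 members were above 100 CPM, 33 between 10 and 100 CPM and 96 below 10 CPM. AW112010 (chr19:11047612-11055808, minus strand), a transcript known to be induced by interferons and inflammatory signals, had the most reads. It was at 347, 214 and 480 CPM in HDAC1-cKO and at 649, 777 and 887 CPM in WT. The groups did not overlap, but the HDAC1-cKO libraries were spread from 214 to 480 CPM, and AW112010, at -1.15 ± 0.27 (SE) in log2 fold change, did not pass the test (edgeR adjusted p = 0.0724). The sum of myeloid and dendritic markers given above was likewise lower in HDAC1-cKO, and its part in this difference was not tested. Without HDAC1-cKO replicate 2, the lowest library for AW112010, the log2 fold change was -0.91 and the edgeR adjusted p = 0.0420. With all libraries kept, AW112010 was called lower in 6 of 13 other settings, among them DESeq2, limma-voom and both fits with offsets. Per length, in the authors' FPKM values, AW112010 ranked second among the members at 273 to 616 FPKM in HDAC1-cKO and 831 to 1144 FPKM in WT.

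All members together took 0.323, 0.311 and 0.341% of the counts in HDAC1-cKO and 0.376, 0.427 and 0.399% in WT. The means were 0.325% ± 0.0149 (SD, n = 3) and 0.401% ± 0.0259 (SD, n = 3), and the groups did not overlap. Without AW112010 the shares were 0.288, 0.289 and 0.291% in HDAC1-cKO and 0.312, 0.351 and 0.313% in WT. The difference became smaller and the groups still did not overlap.

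Several of the members with the most reads share sequence with a gene of another class. Gm10076, first among the members per length at 735 to 989 FPKM in HDAC1-cKO and 719.5 to 827 FPKM in WT, shares 69.9% of its 50-base stretches with Rpl41, which encodes a ribosomal protein. It was at 286, 386 and 289 CPM in HDAC1-cKO and at 322, 279 and 307 CPM in WT, and the groups overlapped (log2 fold change 0.08 ± 0.14 SE, edgeR adjusted p = 0.837). Gm42418, of which 94.9% is shared with the ribosomal RNA gene CT010467.1, was at 389, 326 and 405 CPM in HDAC1-cKO and at 509.9, 542 and 532 CPM in WT. Its groups did not overlap, and it did not pass the test (-0.50 ± 0.11 SE, edgeR adjusted p = 0.0631). Without HDAC1-cKO replicate 2, the log2 fold change of Gm42418 was -0.42 (edgeR adjusted p = 0.0295). With all libraries kept, Gm42418 was called lower in 3 of 13 other settings: DESeq2, limma-voom and the stricter filter. Gm26623 shares 47.7% with the histone gene H2afz and was at 186, 111 and 176 CPM in HDAC1-cKO against 178, 169.98 and 153 CPM in WT.

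Over all members, 30 shared at least 25% of their 50-base stretches with another gene, and these held 31.4% of the members' summed CPM. Their median log2 fold change was 0.06, with 14 below 0. The other 108 had a median of -0.26, with 79 below 0. The difference between both sets was not tested. Gm26825, which shares 93.3% of its stretches with the chaperone gene Hspa8, was at 21.8, 13.3 and 17.7 CPM in HDAC1-cKO and 11.6, 8.96 and 7.43 CPM in WT (0.91 ± 0.25 SE, edgeR adjusted p = 0.109). Exons of 51 members overlapped an exon of another gene, on the opposite strand in 36.

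Other members with many reads share none or few of their 50-base stretches with other annotated genes. Gm19585, which lies 153125 bases from Satb1, the gene of a chromatin organiser of T cells, was at 238, 231 and 187 CPM in HDAC1-cKO and at 196, 183 and 183 CPM in WT, with a small overlap (0.22 ± 0.12 SE, edgeR adjusted p = 0.403). Gm28875 was at 158, 163 and 142 CPM in HDAC1-cKO and at 95.5, 125 and 143 CPM in WT (0.35 ± 0.16 SE, edgeR adjusted p = 0.317). Gm26917 (chr17:39843013-39846341, plus strand) is, like Gm42418, on the fixed list of ribosomal RNA derived or housekeeping genes. Gm42418 lies beside it at chr17:39846958-39848788 on the same strand, and the comparison of stretches covers annotated genes only. Gm26917 was at 123, 169.8 and 146 CPM in HDAC1-cKO and at 155, 154 and 159 CPM in WT (-0.09 ± 0.13 SE, edgeR adjusted p = 0.789). None of Gm19585, Gm28875 and Gm26917 passed the test. Gm7125 was at 69.0, 76.3 and 65.4 CPM in HDAC1-cKO and at 49.3, 47.0 and 50.0 CPM in WT. Its groups did not overlap, and at 0.53 ± 0.12 (SE) in log2 fold change it did not pass the test (edgeR adjusted p = 0.0625).

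Small RNA hosts are genes whose transcripts are cut or spliced to release microRNAs or small nucleolar RNAs. The list used here is broader: it held names of other gene classes, and Mirt1, which is not known as a host. Of its 30 names 9 were members and none of them passed edgeR's test in either direction, where Mir155hg and Mirt1 had an unadjusted p under 0.05 and DESeq2 and limma-voom each called Mir155hg lower. Mirt1 reached the threshold of 2 CPM only through its WT libraries, where it is high. The mature microRNAs of 3 hosts are printed because the host transcript is their precursor and the libraries did not measure them: the table's own rows for these microRNA genes were at 0 in all 6 libraries. Sequences are from RefSeq (GRCm38.p6), and the seed, bases 2 to 8, which pairs with target transcripts, is in capitals.
miR-155-5p: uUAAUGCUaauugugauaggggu
miR-142a-5p: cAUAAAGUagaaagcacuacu
miR-142a-3p: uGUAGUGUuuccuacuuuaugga
miR-17-5p: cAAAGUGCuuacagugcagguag
miR-20a-5p: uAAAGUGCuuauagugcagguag
miR-18a-5p: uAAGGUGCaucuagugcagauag
miR-19a-3p: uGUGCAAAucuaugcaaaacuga
miR-19b-3p: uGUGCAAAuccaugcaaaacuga
miR-92a-3p: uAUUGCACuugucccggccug
In this set miR-17-5p and miR-20a-5p have the same seed, as do miR-19a-3p and miR-19b-3p, and all of these come from Mir17hg.

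Mir155hg, the host of miR-155, which promotes inflammatory T cell responses, stood closest to the threshold among the hosts. Mir155hg (chr16:84703167-84715245, plus strand) was at 5.52, 4.17 and 4.46 CPM in HDAC1-cKO and at 11.02, 12.5 and 7.77 CPM in WT. Its libraries separated by genotype, and its difference was -1.14 ± 0.25 (SE) on the log2 scale (edgeR adjusted p = 0.0609). Mir142hg (chr11:87755577-87757270, plus strand), the host of the blood-cell microRNA miR-142, was at 31.4, 53.6 and 36.8 CPM in HDAC1-cKO and at 37.0, 48.4 and 46.7 CPM in WT. Mir17hg (chr14:115042879-115046727, plus strand), the host of the proliferation-linked cluster, was at 15.3, 6.61 and 12.9 CPM in HDAC1-cKO and at 11.9, 15.5 and 6.401 CPM in WT. In both, the groups overlapped, with log2 fold changes of -0.12 ± 0.22 and 0.04 ± 0.39 (SE). The groups of the snoRNA hosts overlapped too: Snhg6 had a log2 fold change of 0.12 ± 0.16, Snhg20 of -0.03 ± 0.14, Snhg10 of 0.04 ± 0.29 and Snhg12 of 0.34 ± 0.29 (SE), and Epb41l4aos one of -0.06 ± 0.30 (SE).

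A short fixed list of genes linked to lymphocytes held 2 members, and names absent from the table could not be members. Gm14005, known as Morrbid, lies next to Bcl2l11, the gene of the pro-apoptotic protein BIM, and is known to restrain it in short-lived blood cells. It was at 30.6, 26.7 and 34.1 CPM in HDAC1-cKO and at 39.9, 45.6 and 43.4 CPM in WT. Here too the genotypes separated, at -0.50 ± 0.14 (SE) in log2 fold change (edgeR adjusted p = 0.119). Bcl2l11 had one of -0.69 (edgeR adjusted p = 0.188). Gm2682, listed with it, was at 11.8, 5.62 and 14.7 CPM in HDAC1-cKO and at 20.1, 27.9 and 26.2 CPM in WT, without overlap (-1.21 ± 0.33 SE, edgeR adjusted p = 0.110). Of the 9 names on this list 4 were in the table, 2 were members and none was called by edgeR, where both members had an unadjusted p under 0.05 and were called lower by DESeq2 and by limma-voom.

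Of the 5 genes of X inactivation, the process that silences an X chromosome in females, only Ftx was a member. Of these 5, 2 carry another biotype than lincRNA and could not be members. Ftx, a regulator of Xist, was at 4.78, 2.22 and 4.02 CPM in HDAC1-cKO and at 5.35, 6.58 and 6.06 CPM in WT (-0.71 ± 0.31 SE, edgeR adjusted p = 0.302). Its groups did not overlap. Xist itself had 0 counts in every library, which allows at most 0.0537 to 0.150 CPM given 3 counts of each library's total, for counting error only. None of 7 imprinted genes on the list was a member, and 4 of them carry another biotype than lincRNA. Kcnq1ot1, an antisense gene among these 4, had a mean of 16.5 CPM (-0.49 ± 0.25 SE, edgeR adjusted p = 0.374). Pvt1, which lies 47612 bases from Myc and was the only member among 5 genes related to p53 or MYC, was at 3.07, 5.70 and 3.72 CPM in HDAC1-cKO and at 4.37, 4.65 and 3.95 CPM in WT (-0.05 ± 0.29 SE, edgeR adjusted p = 0.954).

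Coding genes near the members were examined through the location column. The nearest coding gene lay at a median gap of 6616 bases. The gene bodies overlapped for 24 members, the gap was at most 5 kb for another 41 and over 50 kb for 25. A member and its nearest coding gene pointed away from each other in 28 cases, with starts less than 1 kb apart in 11. The nearest coding gene was tested for 105 members, 102 distinct genes in all, and 3 of them were called, Id2 and Tmsb4x lower and Ift22 higher. This is near the 2.65% called among coding genes at 2 CPM or more.

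Across the 105 pairs, the log2 fold changes of a member and its coding neighbour had a Pearson r of 0.193 and a Spearman rho of 0.234. Pairs of coding genes and their own nearest coding gene, 6901 in all, had an r of 0.135 and a rho of 0.160. These values are across genes of the same 6 libraries, which are not independent replicates, so they describe these libraries only. For the 11 pairs with starts less than 1 kb apart, the median was 0.04 for the members and 0.01 for their neighbours, with an r of 0.340. Of the 102 distinct neighbours, 59 had a log2 fold change below 0, with a median of -0.17. Among coding genes at 2 CPM or more, a threshold not set for the neighbours, 51.4% were below 0, with a median of -0.01. The member next to Tmsb4x, the gene of an actin-binding peptide that fell by 0.50 on the log2 scale (edgeR adjusted p = 0.0334), was Gm15232, at -0.91 ± 0.47 (SE, edgeR adjusted p = 0.391). The member next to Ift22, which rose by 1.93 (edgeR adjusted p = 0.00395), was 4933404O12Rik, at -0.14 ± 0.51 (SE, edgeR adjusted p = 0.931). Gm15232 and 4933404O12Rik both reached the threshold of 2 CPM only in the mean of the WT libraries.

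**Figure D4:**
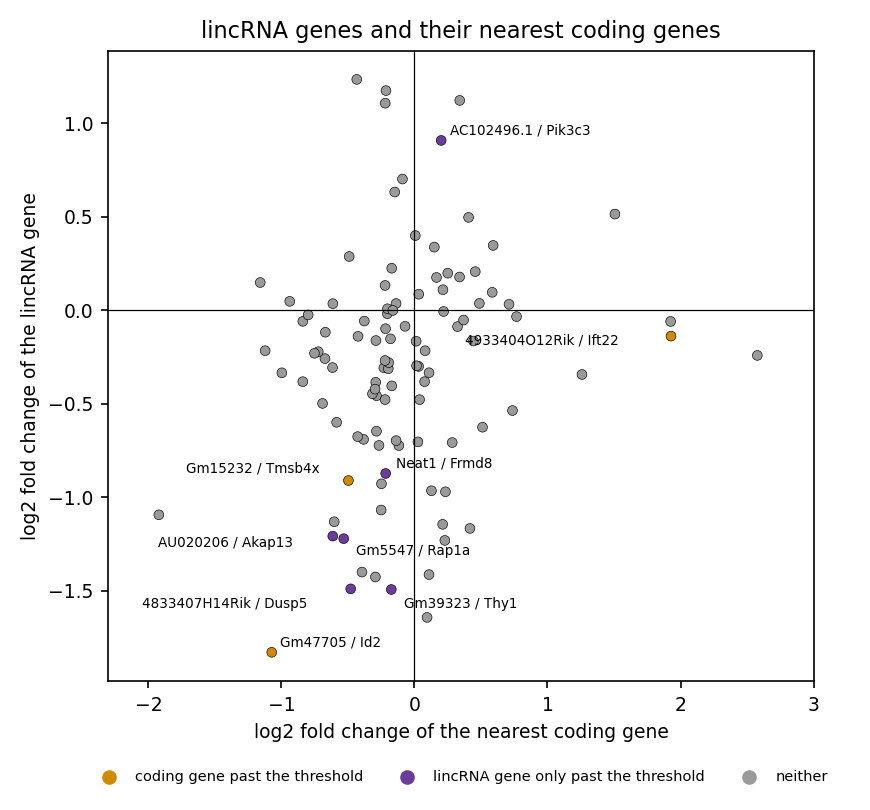
Log2 fold change, HDAC1-cKO over WT, of the nearest coding gene (horizontal) and of the lincRNA gene (vertical) for the 105 members whose neighbour was tested. Each point is 1 member, coloured where the coding gene or only the lincRNA gene had an edgeR adjusted p under 0.05. Gm47705 and Id2 are the pair in which both were called, and the points scatter widely, with a Pearson r of 0.193.

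Of the called members whose neighbours were tested, only Gm47705 had a called nearest coding gene. Gm39323 had 5 tested coding genes within 200 kb, of which 2 had a log2 fold change below 0 and 1 was called. This was Mcam, 93410 bases away, which rose by 7.12 ± 1.03 (SE) on the log2 scale (edgeR adjusted p = 0.0244). Mcam was at 2.48, 0.829 and 0.882 CPM in HDAC1-cKO and at 0.0195, 0 and 0 CPM in WT. AU020206 lies 14429 bases from Akap13, which encodes an anchoring protein for protein kinase A and was at -0.61 ± 0.15 (SE) in log2 fold change (edgeR adjusted p = 0.0788). Gm5547 lies 14204 bases from Rap1a, the gene of a small GTPase of integrin signalling, at -0.53 ± 0.19 (SE, edgeR adjusted p = 0.195). Both neighbours had lower means in HDAC1-cKO without passing the test. Another member lies among genes that did: Gm28935, chosen for mention after its values were seen, lies on chromosome 19 in the Ms4a cluster of membrane proteins. It was at 1.84, 1.23 and 1.76 CPM in HDAC1-cKO and at 3.77, 3.54 and 2.98 CPM in WT, without overlap (-1.09 ± 0.30 SE, edgeR adjusted p = 0.108). Gm28935 reached the threshold of 2 CPM only through its WT libraries. Within 200 kb of it, 7 of 8 tested coding genes had a log2 fold change below 0. Ms4a4c fell by 1.64 ± 0.14 (SE, edgeR adjusted p = 0.00391) and Ms4a4b by 1.68 ± 0.17 (SE, edgeR adjusted p = 0.00654) on the log2 scale. AW112010 lies on the same chromosome, 11663 bases from Ms4a8a, which was not tested. Ms4a1 is within 200 kb of both AW112010 and Gm28935. Of the 6 tested coding genes within 200 kb of AW112010, none was called by edgeR or DESeq2. Of these, 2 had an unadjusted edgeR p under 0.05, both higher, and limma-voom called 1 of them.

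Replicates of a genotype differed more for lincRNA members than for coding genes at the same threshold. The median coefficient of variation over 3 libraries was 21.3% in HDAC1-cKO and 16.7% in WT, where that of coding genes was 16.8% and 12.2%. The members also have fewer reads than coding genes, at a median of 5.57 against 29.1 CPM. HDAC1-cKO replicate 2 was the lowest of the 6 libraries for 47 members and the highest for 25, more often at an extreme than replicates 1 and 3. Over the 2 HDAC1-cKO libraries left, the median coefficient of variation was 13.4% without replicate 2, 20.6% without replicate 1 and 20.1% without replicate 3. WT replicate 2 was the highest library for 48 members, and without it the members' median log2 fold change was -0.15.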

How the data were processed

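RNA of 500 sorted cells per library was measured in 6 libraries by Smart-seq2 with a transposase kit and 50-base single reads, per the labels' protocols. Raw read counts per gene, as whole numbers, and FPKM values for the same genes were deposited by the authors. Per the submitters' processing notes, tools included STAR 2.5.2b, Picard 2.19.2 and DESeq2 1.24.0 in R 3.6.1. Not given in the sources used here are the read counter, its strand setting and its treatment of reads that fit several places. Gene coordinates equalled GENCODE M21 on GRCm38 for 55450 of 55536 rows, among them all members. Every count column matched 1 sample, and 0 columns were left out.

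All genes that passed filterByExpr were fitted together by edgeR's quasi-likelihood F test, robust and two-sided, with TMM scaling and genotype as the only term (edgeR 4.0.16 in R 4.3.3), and p-values were adjusted by Benjamini-Hochberg over 15519 genes. The method was tested on simulated data. Printed CPM use TMM-scaled totals, whereas the member rule uses plain totals. SE is the log2 fold change divided by the root of F. Each library is a pool of 2 mice, and whether the groups share a day is not stated, so p-values measure the spread between these libraries. Reads carry no molecular identifiers.

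The members, the gene lists and the tests were chosen with earlier results of these data known. Named genes were every called member, the 12 with the lowest p, the 8 with the highest CPM, members of the lists, those with a called nearest coding gene and those beside the threshold. Family members, the surroundings of AW112010, Gm28935 and Gm39323 and the genes in passages on shared sequence were chosen after their values were seen. Alternatives were other scaling, filters and thresholds, DESeq2 1.42.0, limma 3.58.1 (voom, and log2 of FPKM plus 1 or 0.1), a replicate block and leaving out each library. Added after seeing the data were adjusted deviances and offsets for GC content or for GC content and length. Figures were drawn with matplotlib 3.10.9.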

Additional observations from a re-analysis of the deposited data

How the results depend on the processing

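The members called higher and lower, 2 and 7, became 7 and 19 with DESeq2 and 8 and 20 with limma-voom. They became 4 higher (8 lower) with limma on log2(FPKM + 1), and 4 and 12 at an adjusted p under 0.1. Over all genes tested the calls also rose, from 152 and 154 to 700 and 656 with DESeq2 and 770 and 819 with limma-voom. With limma on log2(FPKM + 1) they were 218 and 186. Leaving out 1 library gave 0 to 2 higher and 0 to 10 lower: 0 and 0 for each library but HDAC1-cKO replicate 2, whose absence left 2 and 10. Over all genes, 258 were called higher and 368 lower without HDAC1-cKO replicate 2. Without another library in its place, 15 to 26 were called higher and 10 to 23 lower. With the replicate block, 0 and 0 were called, and the block gave Epb41l4aos 0.0057. Over all genes the block left 34 called higher and 31 lower. The cause was not tested. The numbers were not taken to pair the samples, and no label states a shared origin. Deviations of same-numbered libraries correlated at 0.204, 0.016 and -0.128 over 8333 genes, and those of differently numbered ones at -0.181 to 0.196. The headers of the count columns also carry serial numbers, which are consecutive within each replicate number. What these stand for is not stated, and whether the samples are paired is not known. With other scaling factors, no or a stricter filter, no robust estimation, log2(FPKM + 0.1), adjusted deviances, both offsets and member thresholds of 1 or 5 CPM, counts stayed within 1.5 times, at 2 to 3 higher and 5 to 9 lower. The members' median ran from -0.26 to -0.13 over all settings.

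None of the called members changed direction. Genes near 0 did: voom gave Gm10076 -0.030, Gm26623 0.081, 4933404O12Rik 0.0013 and Epb41l4aos 0.10. GC offsets gave Gm10076 -0.012, Gm26623 0.018 and Pvt1 0.043, and GC and length offsets Gm10076 -0.028, Pvt1 0.028 and Snhg10 -0.010. Upper-quartile factors gave Snhg20 0.00084, log2(FPKM + 0.1) Epb41l4aos 0.0025 and adjusted deviances Mir17hg -0.0048. Leaving out 1 library, Gm26917 ran from -0.23 to 0.011, Gm10076 from -0.084 to 0.15, Mir142hg from -0.38 to 0.035, Gm26623 from -0.23 to 0.11, 4933404O12Rik from -0.53 to 0.12, Snhg20 from -0.12 to 0.022, Epb41l4aos from -0.29 to 0.28, Pvt1 from -0.36 to 0.13, Snhg10 from -0.12 to 0.17 and Mir17hg from -0.24 to 0.33. Members under 10 CPM rest on few reads, and reads shared between copies limit others.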
